A study of Homo sapiens with 12 samples.

Results

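Acetylation of lysine 9 of histone H3 (H3K9ac) was examined at regions shared by the annotated ends of 2 or more protein-coding genes in MOLM-13, a human acute myeloid leukaemia cell line with a KMT2A-MLLT3 fusion. Of 47648 regions in the table, 1898 were under 5000 bp wide, lay on 1 of 18 autosomes and came within 1 kb of a RefSeq end of at least 2 coding genes. These are called shared-end regions, and the 8402 regions of the same width and chromosomes near the ends of exactly 1 coding gene are called single-gene regions. Chromatin immunoprecipitation sequencing had been done on 3 libraries of cells given the solvent DMSO and 3 of cells given WM-1119, a small-molecule inhibitor of the histone H3 acetyltransferase KAT6A, at 4 µM for 4 days. All 6 libraries came from this 1 cell line, and 6 input libraries were not analysed here. Nothing in the labels ties the replicates to separate cultures; the p-values therefore reflect only how much these libraries vary, and that variation may be technical. Values are CPM, reads per region scaled to 1000000 over all listed regions of a library. Such a scale cannot show a genome-wide gain or loss of the mark.

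Neighbouring genes can share a promoter when they lie on opposite strands with their starts close together, so that transcription runs outward from 1 stretch of open chromatin in both directions. Such bidirectional promoters are usually rich in CpG, seldom have a TATA box, and often serve housekeeping genes such as those for DNA repair and mitochondrial proteins. H3K9ac marks nucleosomes on both sides of active starts. Gene ends can also meet in other ways, with the start of 1 gene behind the 3′ end of the next, or with both 3′ ends facing each other, where no promoter is annotated.

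The stretch between opposed starts is the sequence that both genes of a pair have in front of them. It is printed for 8 of the shared-end regions named below, on the plus strand, from the base after the start of the minus-strand gene to the base before that of the plus-strand gene, as RefSeq gives them for GRCh38.p14. Capitals mark matches, on either strand, to an ETS motif (CCGGAAG), an SP1 motif (GGGGCGG), an NFY motif (CCAAT) or a CRE (TGACGTCA).
RHBDD3/EWSR1, chr22:29268164-29268267: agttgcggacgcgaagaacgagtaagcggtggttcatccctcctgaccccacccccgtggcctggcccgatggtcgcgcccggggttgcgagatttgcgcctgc
ASPRV1/PCBP1, chr2:70087376-70087476: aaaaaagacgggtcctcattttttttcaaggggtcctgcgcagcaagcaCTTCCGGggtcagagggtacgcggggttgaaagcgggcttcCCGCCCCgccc
GLYR1/UBN1, chr16:4847289-4847480: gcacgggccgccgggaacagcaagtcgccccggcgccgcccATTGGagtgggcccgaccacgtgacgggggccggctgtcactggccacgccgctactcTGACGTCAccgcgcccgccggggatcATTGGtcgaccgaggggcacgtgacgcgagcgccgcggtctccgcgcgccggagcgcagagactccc
PATL2/B2M, chr15:44711391-44711516: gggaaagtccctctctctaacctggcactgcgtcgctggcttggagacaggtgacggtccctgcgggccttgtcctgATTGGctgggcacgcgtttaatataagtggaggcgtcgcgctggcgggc
LRRC41/UQCRH, chr1:46303617-46303697: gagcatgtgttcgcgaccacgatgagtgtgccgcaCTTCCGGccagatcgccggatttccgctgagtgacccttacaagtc
SIRT3/PSMD13, chr11:236932-236975: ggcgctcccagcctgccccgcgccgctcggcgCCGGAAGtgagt
KARS1/TERF2IP, chr16:75647666-75647772: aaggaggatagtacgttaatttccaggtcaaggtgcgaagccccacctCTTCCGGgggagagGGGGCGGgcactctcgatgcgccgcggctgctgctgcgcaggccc
HARS1/HARS2, chr5:140691371-140691454: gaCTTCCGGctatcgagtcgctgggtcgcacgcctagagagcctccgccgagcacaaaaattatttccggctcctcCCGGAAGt
The 8 stretches were 44 to 192 bases long. An ETS match was present in 5 of the 8, among them SIRT3/PSMD13, a pair of a mitochondrial deacetylase and a proteasome subunit, and HARS1/HARS2, the cytosolic and mitochondrial histidyl-tRNA ligases. The stretch of PATL2/B2M, in front of the gene of the MHC class I light chain, and that of GLYR1/UBN1 held NFY matches. That of RHBDD3/EWSR1, the region with the highest H3K9ac of the 8, held no match to any of the 7 motifs searched. A match is a description of letters, not a bound site.

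Depth ranged from 719329 reads in regions for DMSO replicate 1 and 1298443 for DMSO replicate 2 to 12705349 for WM-1119 replicate 3. DMSO replicates 1 and 2 stood apart: regions below the median level of the table took 8.95% and 7.19% of their CPM, against 2.19% to 3.35% in the other 4 libraries. By counting error alone, 0 reads allow a level of 4.17 CPM in the shallowest library, DMSO replicate 1, and of 0.236 CPM in the deepest one. The cell line's identity was checked at gene ends: 7 of 8 myeloid leukaemia markers had a region of at least 20 CPM, with CD33 at 3.67 CPM as the exception, and 0 of 16 B cell, T cell, erythroid and epithelial markers did.

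Shared-end regions held more H3K9ac than single-gene regions in every library. Their median level was 51.4, 55.5 and 61.2 CPM in DMSO replicates 1, 2 and 3 and 59.9, 61.9 and 61.4 CPM in WM-1119 replicates 1, 2 and 3. Single-gene regions had medians of 30.6, 29.7 and 28.9 CPM and 31.5, 30.9 and 30.3 CPM in the same libraries. The within-library difference of medians was 0.93 ± 0.11 on the log2(CPM + 1) scale (SD, n = 6 libraries), in 6 of 6 libraries (exact two-sided sign-flip permutation over libraries p = 0.03125, the smallest the design allows; 0.0365 after Benjamini-Hochberg adjustment over 7 comparisons of region classes). Shared-end regions made up 3.98% of the regions and held 10.1% to 12.8% of the CPM of a library. They were also wider, with a median width of 2166 bp against 1558 bp, and CPM is not divided by width. Per kb of region the difference was 0.43, and among regions of 1000 to under 3000 bp it was 0.27.

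The name shared promoters fitted only part of the regions. RefSeq start windows give the strand of 81.5% of the coding genes on these chromosomes. With them, 904 of the 1898 shared-end regions (47.6%) lay at 2 opposed starts, 379 at a start and a 3′ end, 75 at starts that run in 1 direction and 88 at 3′ ends only. For the remaining 452 a needed strand was not in the table. The 1898 regions carried 1739 different sets of genes, since 153 sets had more than 1 region. Most regions touched 2 genes, 121 touched 3 and 8 touched 4 or more. Genes were counted by RefSeq symbol, so joint entries such as HOXA10-HOXA9 and ARPC4-TTLL3 count as genes of their own. How many regions count as shared only through such entries was not tested.

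**Figure D1:**
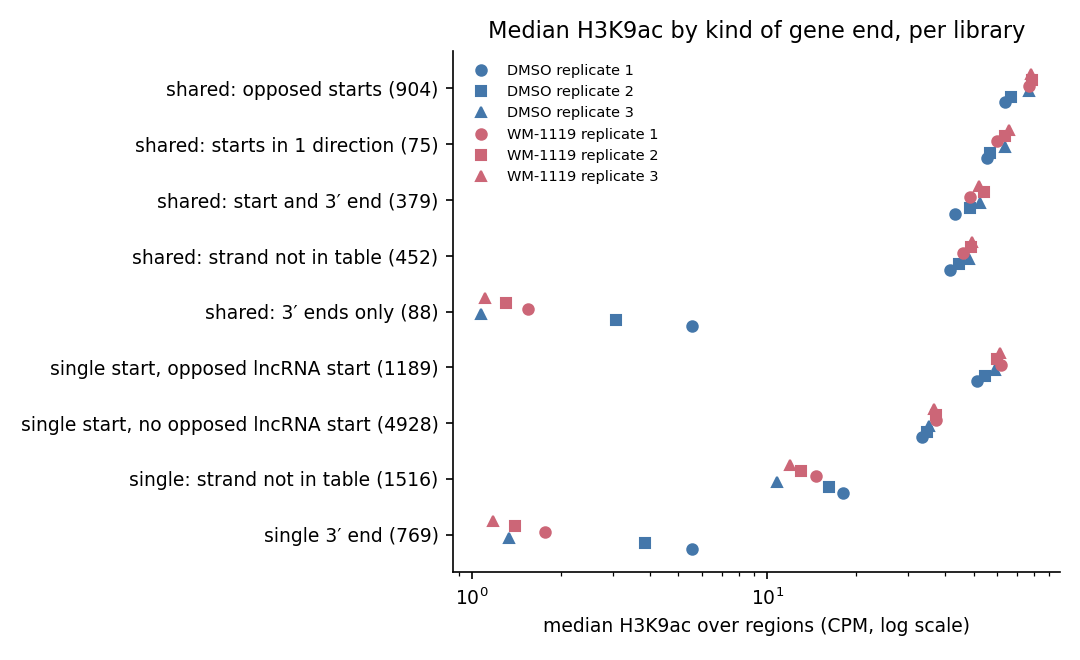
Median H3K9ac over the regions of each class (horizontal axis, CPM, log scale), with 1 point per library and the number of regions in brackets. Opposed starts lie highest in all 6 libraries, and regions at 3′ ends only lie near 1 to 6 CPM, with DMSO replicates 1 and 2 highest among them.

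H3K9ac followed the kind of end and not only the number of genes. Regions at opposed starts had a median of 63.9, 67.0 and 76.9 CPM in DMSO replicates 1, 2 and 3 and 77.1, 78.9 and 78.5 CPM in WM-1119 replicates 1, 2 and 3. They exceeded the other shared-end regions by 0.73 ± 0.07 on the log2(CPM + 1) scale (SD, n = 6 libraries) in 6 of 6 libraries (exact sign-flip permutation p = 0.03125; adjusted 0.0365). They were also wider, and the difference was 0.36 per kb, 0.25 among regions of 1000 to under 3000 bp, 0.37 among those of at least 10 CPM and 0.14 among those of 50 to 200 CPM. The CPM limits are set on the compared level itself, which tends to shrink a difference. Regions at 3′ ends only were at the level of the table's weak regions, with a median over libraries of 2.07 CPM and a median width of 266.5 bp. Of these, 79.5% were below 5 CPM, against 5.97% of the regions at opposed starts. Single-gene regions at a 3′ end had a median of 2.41 CPM, and the difference between shared and single 3′ ends, -0.11 ± 0.09 on the log2 scale (SD, n = 6), did not pass (exact sign-flip permutation p = 0.0625). It was -0.19 with means over regions and -0.30 among regions of at least 10 CPM, both with the smallest possible exact sign-flip p of 0.03125. Of the 88 shared 3′ end regions 70 were below 5 CPM, so the value of -0.30 rests on few regions. Both medians, 2.07 and 2.41 CPM, also lay below the 4.17 CPM that 0 reads allow in DMSO replicate 1.

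Single-gene regions at a start were the closer comparison for opposed starts, chosen after the classes were seen. They numbered 6117 and had a median of 40.9 CPM, against 73.4 CPM at opposed starts, both as means over the 6 libraries. The within-library difference was 0.84 ± 0.07 (log2 scale, SD, n = 6), or 1.80-fold, in 6 of 6 libraries (exact sign-flip permutation p = 0.03125; adjusted 0.0365). Per kb it was 0.35, and among regions of 1000 to under 3000 bp it was 0.35. Regions at a start and a 3′ end differed from single starts by 0.29 ± 0.08 (log2 scale, SD, n = 6; exact sign-flip permutation p = 0.03125; adjusted 0.0365), and by -0.05 among regions of 50 to 200 CPM. That CPM window limits the compared level itself, which tends to shrink a difference. The share of regions with at least 20 CPM was 87.8% at opposed starts, 75.5% at a start with a 3′ end, 66.3% at single starts, 4.55% at shared 3′ ends and 8.71% at single 3′ ends.

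**Figure D2:**
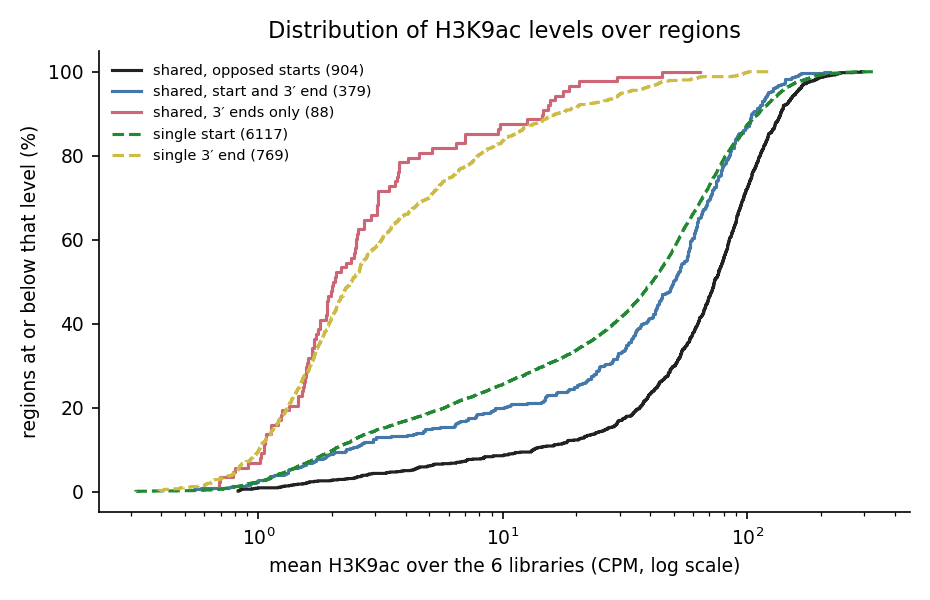
Share of regions (vertical axis, %) at or below a given mean H3K9ac over the 6 libraries (horizontal axis, CPM, log scale), by class of gene end with the number of regions in brackets. The curve of opposed starts lies to the right of that of single starts, with medians of 73.4 and 40.9 CPM, and both 3′ end curves lie far to the left.

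A second start need not belong to a coding gene. Of the 6117 single-start regions, 1189 had the start of a long non-coding RNA (lncRNA) gene on the opposite strand within 1 kb. Only lncRNA genes whose strand the start windows give could be counted, so the regions without one may hold further opposed lncRNA starts. Their median was 58.1 CPM, against 36.6 CPM for the 4928 without one, a within-library difference of 0.69 ± 0.05 (log2 scale, SD, n = 6) in 6 of 6 libraries (exact sign-flip permutation p = 0.03125; adjusted 0.0365). Opposed coding starts in turn exceeded starts with an opposed lncRNA start by 0.33 ± 0.04 (SD, n = 6) in 6 of 6 libraries, with the same p. Per kb these differences were 0.30 and 0.13. A further 115 single-gene regions lay within 1 kb of an inner start of another coding gene, and leaving them out moved the difference between shared-end and single-gene regions from 0.93 to 0.95.

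The level at opposed starts changed little with the distance between them. In 236 of the 904 regions the genes overlapped at their 5′ ends, 172 had starts up to 100 bp apart, 290 had them up to 250 bp apart, 142 up to 500 bp, 44 up to 1000 bp and 20 further apart, each class beginning where the last ends. The medians of these spacing classes were 73.3, 66.9, 72.5, 79.9, 70.8 and 79.8 CPM, and the quartiles of the first ran from 39.8 to 111 CPM, so the classes overlapped widely. The median width rose from 2180 bp for starts up to 100 bp apart to 2485, 2730, 2823 and 3094 bp in the wider classes. Per kb the medians were 28.0, 28.1, 29.1, 24.9 and 24.3 CPM in the same order. No test was made across these classes.

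**Figure D3:**
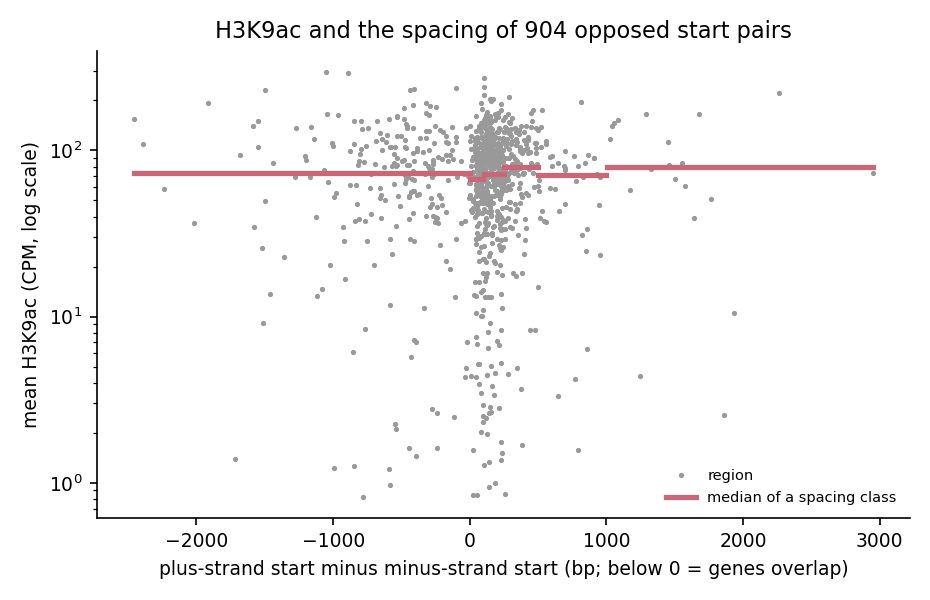
Mean H3K9ac over the 6 libraries (vertical axis, CPM, log scale) of each region at opposed starts against the distance between the starts (horizontal axis, bp, negative where the genes overlap). Red lines give the median of each spacing class, which lie between 66.9 and 79.9 CPM.

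Regions at opposed starts reached into both genes. Among 568 pairs up to 1000 bp apart with both starts inside the region, it extended a median of 1188 bp into the minus-strand gene (quartiles 863 and 1554) and 1175 bp into the plus-strand gene (quartiles 874 and 1484), with a median of 165 bp between the starts. At single starts inside their region, the median extent was 1290 bp into the gene and 642 bp away from it. So the arm into a gene was of similar length in both kinds, and the other side was longer at opposed starts. A position 1000 bp away from the gene was covered by 78.3% of regions at opposed starts, where it usually lies in the partner gene, by 34.0% at starts with an opposed lncRNA start and by 17.5% at starts without one. A position 1000 bp into the gene was covered by 65.0%, 79.0% and 67.8% of them.

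**Figure D4:**
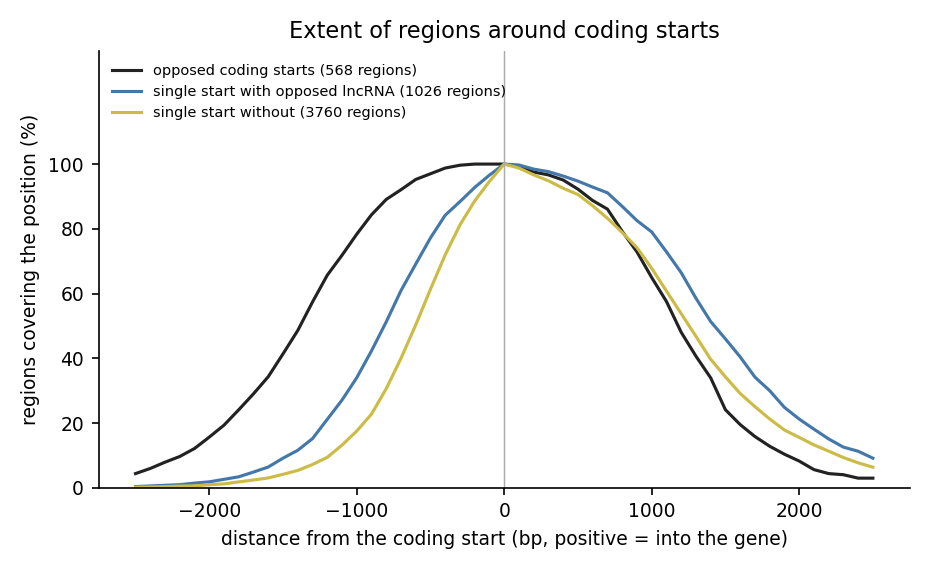
Share of regions covering each position (vertical axis, %) by distance from the coding start in steps along the gene's direction (horizontal axis, bp). For opposed coding starts the plus-strand gene sets the direction, and the curve stays higher on the left, where it reaches 78.3% at 1000 bp, against 17.5% for starts without an opposed lncRNA start.

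The start windows of 300 bases (250 before and 50 after the start) were compared as a description. Windows were found for 1481 of 1690 genes at opposed starts, and the 2 windows of a pair often overlap. The median GC share was 65.0% at opposed starts and 67.0% at single starts with an opposed lncRNA start. It was 66.3% at single starts without an opposed lncRNA start and 63.0% over 11046 coding genes. A CpG ratio, observed over expected, above 0.6 was found in 91.8%, 91.4%, 84.9% and 67.2% of the windows in the same order. Opposed coding starts and starts with an opposed lncRNA start were thus alike in this share. The ETS motif, bound by GABPA and related factors, was in 29.1% of windows at opposed starts, 20.6% at single starts with an opposed lncRNA start, 17.7% at those without and 14.7% of all windows. NRF1 motifs were in 14.8%, 16.3%, 11.2% and 8.85% of these sets in the same order, and YY1 motifs (AAGATGGCG) in 6.21%, 4.56%, 3.56% and 2.84%. TATA motifs (TATAAA) were in 3.11%, 4.76%, 5.45% and 9.92%, so that all 3 start sets lay below the share of all windows. SP1 motifs were in 48.8% of windows at opposed starts, below the 53.7% and 53.1% at single starts with and without an opposed lncRNA start and above the 41.1% of all windows. NFY motifs were in 40.0%, 36.6%, 35.8% and 36.1% of the sets, and CRE motifs in 3.78%, 3.67%, 3.53% and 2.67%. Among 693 regions with both windows, the 245 with an ETS match in either had a median of 81.3 CPM and the others 72.0 CPM. For YY1 the medians with and without a match were 85.2 and 74.1 CPM, for SP1 76.1 and 76.3 CPM, for NRF1 72.3 and 76.5 CPM, for NFY 73.6 and 77.6 CPM, for TATA 70.6 and 76.3 CPM and for CRE 67.9 and 76.3 CPM. These medians were not tested.

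A list of 30 pairs of neighbouring genes, set down as sharing promoters, was followed through the table, and 17 were shared-end regions. The listing itself was not checked, and HTD2/RPP14, 1 of the 17, lay at starts that run in 1 direction. A region wider than the limit (5559 bp, 164 CPM) held HSPD1/HSPE1, the mitochondrial chaperonin and its co-chaperonin. Of the other 12, 2 had a gene outside the chromosomes or the coding gene table used, and 10 had no region within 1 kb of both outer ends. For those 10 it was not tested whether the genes share a promoter at all. Among the 17, HIRA/MRPL40, a histone chaperone and a mitochondrial ribosomal protein with starts 812 bp apart, had 146, 146 and 220 CPM in DMSO replicates 1, 2 and 3 and 212, 214 and 238 CPM in WM-1119 replicates 1, 2 and 3. NPAT/ATM, an activator of histone genes and a DNA damage kinase with starts 429 bp apart, had 108, 100.1 and 121 CPM and 131, 114 and 124 CPM. The lowest of the 17 was NTHL1/TSC2, a base excision repair enzyme and a growth regulator with starts 151 bp apart, at 43.1, 47.7 and 54.4 CPM and 46.7, 57.6 and 57.6 CPM. The groups overlapped in these 3 pairs.

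The 6 lists of basic cell functions had larger shares of genes near shared-end regions than all coding genes, and larger shares near single-gene regions too. Over all 15573 coding genes of the chromosomes, 21.2% had an end within 1 kb of a shared-end region and 10.9% had a start in an opposed pair. The shares were 41.3% and 33.3% of 75 DNA repair and replication genes, 53.2% and 27.4% of 62 mitochondrial ribosome genes, and 49.4% and 30.1% of 83 respiratory chain genes. For 56 ribosome biogenesis and RNA processing genes they were 41.1% and 30.4%, for 28 tRNA ligases 39.3% and 21.4%, and for 47 proteasome and chaperone genes 31.9% and 19.1%. Of 29 blood transcription factor and leukaemia genes 1 was near a shared-end region, at the boundary of HOXA10 and HOXA11, and 0 were at opposed starts. Regions of 5000 bp or more, which the width limit leaves out, numbered 58 near 2 or more genes. Near single-gene regions were 44.0% of all coding genes, 71.4% of tRNA ligases, 64.3% of ribosome biogenesis, 58.7% of DNA repair, 57.4% of proteasome, 50% of mitochondrial ribosome and 47.0% of respiratory chain genes. For the blood transcription factor and leukaemia list this share was 48.3%. No enrichment test was made for these lists.

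The only region of the blood transcription factor and leukaemia list, at HOXA10 and HOXA11, had a mean of 11.6 CPM, and the medians of the other 6 lists lay between 66.4 and 84.2 CPM. That mean stands for 1 region and not for the list. HOXA9 and MEIS1, also of that list, had regions of 1048 and 687 CPM at their ends, outside the shared-end and single-gene regions. The 40 regions of DNA repair and replication genes had a median of 84.2 CPM. Among them TMEM258/FEN1, with the gene of the flap endonuclease, had 118, 132 and 169 CPM in its DMSO libraries and 168, 179 and 180 CPM in those with WM-1119. The 42 respiratory chain regions had a median of 81.7 CPM (range 1.22 to 296). Their highest was also the strongest of all shared-end regions, at NDUFAF3, a complex I assembly factor, DALRD3 and IMPDH2, the rate-limiting enzyme of guanine nucleotide synthesis. Its DMSO libraries had 199, 256 and 344 CPM and its WM-1119 libraries 301, 334 and 345 CPM, so DMSO replicate 3 lay among the WM-1119 libraries. The medians of the mitochondrial ribosome, tRNA ligase, ribosome biogenesis and proteasome lists were 66.4, 73.6, 75.7 and 72.6 CPM, against 59.2 CPM for all shared-end regions.

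The second strongest region was DRC8/LOC124900416 with a mean of 292 CPM, and TYMP/CIMAP1B, with the gene of thymidine phosphorylase, had a mean of 253 CPM. At RHBDD3/EWSR1 the DMSO libraries had 210, 234 and 305 CPM and the WM-1119 libraries 287, 297 and 298 CPM. ASPRV1/PCBP1 had 175, 207 and 277 CPM and 246, 266 and 276 CPM, and CEP95/DDX5, with the gene of an RNA helicase, had 174, 193 and 257 CPM and 286, 252 and 262 CPM. DMSO replicates 1 and 2 were the lowest libraries at each of these 3 regions. Among the weakest regions were GNG3/BSCL2, NOP2/CHD4 and PKMYT1/PAQR4, all 147 bp wide with means of 0.544 to 0.608 CPM, and each had at least 1 library at 0 CPM. At the limits of the rule, the widest regions inside were ANG/RNASE4, METTL23/SRSF2/MFSD11 and ERH/SLC39A9 with 4946, 4954 and 4971 bp and means of 74.8, 212 and 130 CPM. Just outside were IPMK/CISD1, GPBP1L1/TMEM69 and METAP1D/DLX1 with 5004, 5020 and 5024 bp and means of 152, 250.1 and 133 CPM. For distance, C12orf57/PTPN6, ASIC1/SMARCD1 and CPNE9/BRPF1 had their farther gene at 1000 bp, with 4.72, 43.2 and 142 CPM. PMVK/PBXIP1, CPSF3/IAH1 and HOXB7/HOXB8 had theirs at 1002, 1002 and 1004 bp, with 3.18, 30.2 and 7.90 CPM.

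Whether KAT6A inhibition altered H3K9ac at shared ends was tested in a fit over the 44763 regions that averaged 1 CPM or more. Of the 1863 shared-end regions among them, 0 passed limma's test at a Benjamini-Hochberg adjusted p under 0.05, where 0.0603% of all regions did. The smallest adjusted p was 0.251. At an unadjusted p under 0.05 the inhibitor libraries were above DMSO in 180 shared-end regions and below it in 29 (9.66% and 1.56%), beside 2.58% and 10.8% of all regions and 6.94% and 2.51% of single-gene regions. In edgeR on the reads recovered from 5 libraries 0 passed as well, with 19 above and 6 below DMSO before adjustment at the same threshold, where 4.66% of all regions lay in 1 of the directions. Groups did not overlap for 247 regions that were higher in WM-1119 (13.3%) and 51 that were lower (2.74%), against 3.76% and 13.2% of all regions. The median log2 change, on the log2(CPM + 1) scale, was 0.13 at shared ends (quartiles -0.07 and 0.26), 0.04 at single-gene regions and -0.47 over all regions.

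These shares followed the level of a region. The median log2 change was -0.56 for shared-end regions of 1 to 5 CPM, while those of 20 to 50 CPM 0.07, those of 100 to 200 CPM 0.25 and those of 200 CPM or more 0.31. Single-gene regions of the same levels had -0.51, 0.08, 0.25 and 0.35. Counted at shared-end regions only, DMSO replicates 1 and 2 both lay below the other 4 libraries in 642 of the 1085 with at least 50 CPM (59.2%). Without them the medians for the 4 levels were 0.13, 0.07, -0.02 and -0.01 at shared ends. Over all shared ends the median was then 0.02, beside 0.06 at single-gene regions and 0.06 over all regions. That fit takes the lone DMSO library to vary like the WM-1119 libraries.

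The difference between shared-end and single-gene regions shifted with the inhibitor by less than its SD between the DMSO libraries. It was 0.73, 0.88 and 1.06 in DMSO replicates 1, 2 and 3 and 0.91, 0.98 and 1.00 in WM-1119 replicates 1, 2 and 3, on the log2(CPM + 1) scale. The means were 0.89 ± 0.16 and 0.96 ± 0.05 (SD, n = 3 each), a difference of 0.07 (exact two-sided permutation of 3 against 3 libraries p = 0.6, where 0.1 is the smallest possible). Its direction was not stable: it was -0.10 without DMSO replicates 1 and 2, -0.00955 without DMSO replicate 1 alone and -0.0192 among regions of 50 to 200 CPM, and 0.16 per kb. For opposed starts against single starts the means were 0.81 ± 0.09 and 0.88 ± 0.02 (SD, n = 3 each), a difference of 0.08 that became -0.02 without those libraries (exact permutation p = 0.4).

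**Figure D5:**
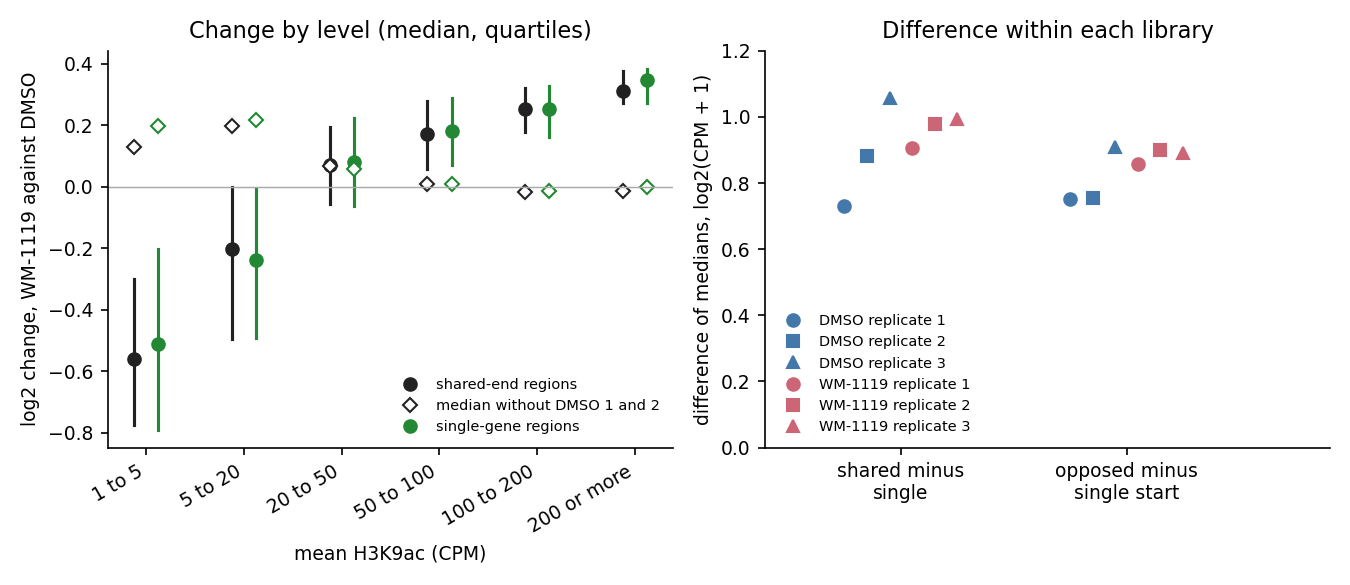
Left: log2 change, WM-1119 against DMSO on the log2(CPM + 1) scale, by mean level of a region (CPM), with medians (filled points), quartiles (lines) and medians without DMSO replicates 1 and 2 (open diamonds); shared-end regions go from -0.56 in the weakest to 0.31 in the strongest class, and single-gene regions lie beside them. Right: within-library difference of medians, 1 point per library, with DMSO replicate 1 lowest and DMSO replicate 3 highest in both comparisons.

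The regions named here by direction were those of at least 20 CPM with groups that did not overlap and the smallest unadjusted p, and none passed after adjustment. GLYR1/UBN1, a nucleosome-binding protein and a histone chaperone subunit, had 122, 113 and 163 CPM in DMSO replicates 1, 2 and 3 and 194, 192 and 183 CPM in WM-1119 replicates 1, 2 and 3; the change on the log2 scale was 0.53 ± 0.16 (SE, with a limma adjusted p of 0.263). PATL2/B2M had 118, 132 and 171 CPM and 201, 191 and 204 CPM (0.51 ± 0.16, SE, with a limma adjusted p of 0.277). Both had groups that did not overlap, with DMSO replicate 3 nearest to the WM-1119 libraries. IFNAR2/IL10RB, subunits of the type I interferon and interleukin-10 receptors, had 48.7, 42.4 and 60.7 CPM and 69.3, 80.8 and 83.7 CPM (0.63 ± 0.19, SE). WDR37/IDI1, with the gene of an isoprenoid synthesis enzyme, had 106, 87.0 and 129 CPM and 159, 152 and 149 CPM (0.53 ± 0.16, SE). CPNE9/BRPF1, where BRPF1 is a scaffold of KAT6 complexes, had 86.2, 120 and 148 CPM and 173, 161 and 165 CPM (0.52 ± 0.16, SE). C2orf92/ACTR1B, PRRG4/CCDC73 and TMEM35B/ZMYM6 had log2 changes of 0.50, 0.50 and 0.59. Without DMSO replicates 1 and 2 these 8 had log2 changes between 0.16 and 0.35.

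On the lower side, IL17RA/TMEM121B, with the interleukin-17 receptor gene, had 50.05, 44.7 and 29.1 CPM in DMSO replicates 1, 2 and 3 and 21.8, 21.1 and 24.1 CPM in WM-1119 replicates 1, 2 and 3. On the log2 scale this was -0.82 ± 0.24 (SE, with a limma adjusted p of 0.251). PDE8B/ZBED3, with a cyclic AMP phosphodiesterase gene, had 29.2, 30.04 and 29.4 CPM and 15.4, 18.8 and 20.6 CPM (-0.67 ± 0.26, SE), so its DMSO libraries nearly coincided. Without DMSO replicates 1 and 2 the changes of these regions were -0.37 and -0.67. INKA1/UBA7, with the ISG15-activating enzyme gene, had 34.8, 27.0 and 19.1 CPM and 16.7, 16.6 and 16.4 CPM (-0.63 ± 0.27, SE). AQP10/ATP8B2, SLC12A9/EPHB4, VCPKMT/SOS2, KRABD2/RPL26 and HARS2/ZMAT2 had log2 changes of -0.55, -0.39, -0.36, -0.41 and -0.29, and the last 4 of them had an unadjusted limma p of 0.0508 to 0.189. Median centring of each library adds 1 constant to every region's change, and with it the changes of all 8 but IL17RA/TMEM121B were above 0 for that reason.

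The same-numbered DMSO and WM-1119 libraries deviated together from their group means, with correlations of 0.46, 0.17 and 0.53 for numbers 1, 2 and 3. Depth also rose with the number, from 719329 to 1298443 and 7481097 reads in DMSO and from 4542322 to 9996190 and 12705349 in WM-1119. These correlations therefore cannot tell a pairing of libraries from depth, and whether the numbers pair libraries was not tested otherwise. With the replicate number as a block, 15 shared-end regions passed limma's adjusted threshold, 13 of them higher and 2 lower, where 1.11% of all regions passed, 0.25% higher and 0.858% lower. At opposed starts 9 of 897 passed. The 15 included 7 of those above: GLYR1/UBN1, PATL2/B2M, IFNAR2/IL10RB, WDR37/IDI1, CPNE9/BRPF1, C2orf92/ACTR1B and IL17RA/TMEM121B, with limma adjusted p of 0.0217 to 0.0496. The smallest, 0.00535 with the block, belonged to NEMP2/NAB1, where NAB1 encodes a corepressor of early growth response factors. Named after their values were seen, its libraries had 33.4, 22.3 and 12.6 CPM in DMSO replicates 1, 2 and 3 and 67.8, 30.9 and 33.8 CPM in WM-1119 replicates 1, 2 and 3, so each WM-1119 library exceeded its own number while the groups overlapped. The others, most of them also named after their values were seen, were ASH1L/MSTO1, EIF3B/SNX8, RPL27A/TRIM66, CHCHD10/C22orf15, ATPSCKMT/CCT5 and ST7L/CAPZA1 on the higher side and MTSS2/VAC14 on the lower side. Without DMSO replicate 3 and without the block, 577 shared-end regions passed, 428 higher and 149 lower, where 43.2% of all regions passed.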

How the data were processed

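H3K9ac libraries of MOLM-13 cells, 3 given DMSO and 3 given WM-1119, were grouped and numbered by their titles. Bowtie2, SAMtools, MACS2, bedtools and hg38 appear in the submitters' processing notes, without roles or versions; how regions were merged, whether duplicates were removed and whether input was used: the sources used here do not give this. The deposited values, named TPM by the authors, are CPM: each library sums to 1000000 and its values are multiples of 1 step whatever the width. Counts up to 100 recovered this way were within 0.02 of whole in 100% of cases in every library. WM-1119 replicate 2 was left out of the count test, although it passed this check. Starts were treated as counted from 0, and 1 was added. The members and lists were chosen with earlier results of these data known.

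Ends are the outer coordinates of protein-coding genes in the RefSeq table of GRCh38.p14, and strands come from its start windows, so inner starts do not count. Under R 4.3.3, limma 3.58.1 (eBayes after lmFit, trend and robust options on) took log2(CPM + 1) of all regions averaging 1 CPM or more, in a model holding treatment alone, and used Benjamini-Hochberg adjustment; edgeR 4.0.16 (quasi-likelihood, TMM) was run on recovered reads. The design assumed no unit, and CPM took the log-scale test. Class levels were compared within libraries and tested by exact permutation of libraries, which share 1 cell line. Python 3.11.15, pandas 2.3.3, numpy 2.4.6 and matplotlib 3.10.9 were used.

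Regions were named by rule: the 6 strongest and 4 weakest, 8 per direction by p among those averaging 20 CPM or more whose groups do not overlap, the listed pairs, those near the most genes, those at the rule's limits and the strongest of each list; the text gives some of these, and a few are not reported here. Alternatives were other pseudocounts and filters, edgeR, limma with those options off, a replicate block, centring on library medians, quantile normalization, other distances and widths, and leaving out libraries. On simulated data (44763 regions, 200 of them changed, a dispersion of 0.05) limma found 7% of the 2-fold changes, 93% of the 4-fold ones, and called 0 of the unchanged regions. The changed regions all averaged 10 CPM or more, and apart from those changes all libraries were given the same region levels. The simulation thus lacks the larger share of weak regions in DMSO replicates 1 and 2, and its figures may not carry over to these libraries. Same-numbered libraries had deviations from their group means correlated by 0.46, 0.17 and 0.53 for numbers 1, 2 and 3 over regions averaging 10 CPM or more. Depth rose with the number in both groups, so this check cannot tell a pairing from depth. The pairing used for the block comes from the numbers in the titles.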

Additional observations from a re-analysis of the deposited data

How the results depend on the processing

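The higher level of shared-end regions, and of opposed starts among them, kept its direction in all alternatives run. With 1 library left out the differences ran from 0.90 to 0.96 and from 0.72 to 0.75 (log2 scale), and without DMSO replicates 1 and 2 they were 0.98 and 0.77; with 5 or fewer libraries the exact test cannot pass. Regions at a start and a 3′ end turned to -0.0451 against single starts among regions of 50 to 200 CPM. That window limits the compared level itself, and the cause was not tested. The shift of the first difference with treatment ran from -0.01 to 0.15 and that of the second from 0.05 to 0.13 with 1 library left out. Without DMSO replicates 1 and 2 they were -0.10 and -0.0215, and the second was 0.16 with means over regions. With the replicate block, as pairs of same-numbered libraries, the shifts stayed at 0.07 and 0.08 (exact sign-flip p = 0.5 for both, where 0.25 is the smallest possible). The count of shared-end regions called was 15 with the replicate block and 0 to 577 with 1 library left out, the 577 without DMSO replicate 3, and 0 in all other alternatives. Their median log2 change was 0.07 to 0.18 with 1 library left out, 0.0208 without DMSO replicates 1 and 2, 0.49 with edgeR and 0.90 with median centring, which moved all regions up by the same amount. That centring turned PDE8B/ZBED3 to 0.10, INKA1/UBA7 to 0.14, AQP10/ATP8B2 to 0.22, SLC12A9/EPHB4 to 0.38, VCPKMT/SOS2 to 0.42, KRABD2/RPL26 to 0.37, HARS2/ZMAT2 to 0.48 and MTSS2/VAC14 to 0.11. edgeR turned KRABD2/RPL26 to 0.0642 and HARS2/ZMAT2 to 0.0693, and leaving out DMSO replicates 1 and 2 turned RPL27A/TRIM66 to -0.0306 and CHCHD10/C22orf15 to -0.12. Depth in DMSO replicates 1 and 2 limits what can be said of regions below about 5 CPM.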

Other observations

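Among the 88 shared-end regions at 3′ ends only, 4 had at least 20 CPM; they are named because of these values. DUOX1/SHF, with the gene of a hydrogen peroxide-producing oxidase, had 50.05, 53.1 and 73.3 CPM in DMSO replicates 1, 2 and 3 and 53.1, 74.7 and 81.1 CPM in WM-1119 replicates 1, 2 and 3. PRR7/DBN1 had 44.5, 44.7 and 43.0 CPM and 53.1, 41.8 and 41.2 CPM. EXTL1/SLC30A2 had a mean of 20.5 CPM. TMEM43/XPC, with a nucleotide excision repair gene, had 48.7, 42.4 and 8.69 CPM and 28.8, 37.7 and 8.89 CPM, so replicate 3 was the lowest library in both groups.

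Of the 904 regions at opposed starts, 54 were below 5 CPM. A stronger region of at least 20 CPM lay at the same pair for 26 of the 54. When each of the 845 opposed pairs was given by its strongest region, the median was 77.5 CPM and 21 pairs stayed below 5 CPM. The lowest single regions, such as PARG/TIMM23B at 0.839 CPM and SYCP2/FAM217B at 0.941 CPM, were 188 and 147 bp wide.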
